A study of Mus musculus with 6 samples.

Results

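The genes described here encode 8 receptors that direct where CD8+ T cells travel. They are *Ccr7* and *S1pr1*, which keep naive cells moving through lymph nodes, *Cxcr4*, the inflammatory receptors *Cxcr3* and *Ccr2*, and the tissue homing receptors *Ccr9*, *Gpr15* and *Itgae*. They were taken by symbol from a table of 78275 genes, in which each symbol occurs a single time. All 8 were among the 16105 genes with enough counts to be tested. RNA was sequenced from TCRβhigh CD4-CD8+ T cells of 3 WT mice and 3 BIT mice, with 1 library per mouse. WT mice were unmodified C57BL/6 mice. BIT mice are homozygous for an allele, made on the same background, in which the *Psmb11* coding sequence, for the thymoproteasome subunit β5t, sits at the translation start of *Psmb8*, the gene of the immunoproteasome subunit β5i. The allele is present in every cell of the animal, and the labels do not name the line, while the study's text gives BIT #1-2 wherever it names no other of its independent lines. The labels give males of 9 to 10 weeks. They name lymph nodes as the source, while their protocol names lymph nodes and spleens. The comparison asks whether CD8+ T cells that matured in BIT mice carry the homing receptors of WT cells.

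A naive T cell enters a lymph node from the blood through high endothelial venules. CCR7 recognises the chemokines CCL19 and CCL21 on the vessel wall, and the integrin LFA-1 arrests the cell. It leaves again through S1PR1, a receptor for the sphingosine 1-phosphate of lymph and blood. Memory and effector cells instead use receptors for inflammatory chemokines, such as CXCR3 and CCR2, and receptors that lead to particular tissues, such as CCR9 and GPR15 for the intestine. In mice, CCR9 and the integrin chain CD103, encoded by *Itgae*, are also carried by thymocytes of the CD8 lineage and by naive CD8+ T cells.

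The libraries held between 37467678 and 52922675 estimated counts. *Psmb8* had between 8024 and 10790 counts in WT and between 59 and 73 in BIT mice, and *Psmb11* had 0 counts in WT and between 1226 and 1926 in BIT mice. WT replicate 3 went against its label as male, with 66626 *Xist* counts and none from 4 Y-linked genes (summed count 0). BIT replicate 3 had 125 *Xist* counts and 8949 from the Y-linked genes, and the remaining libraries had between 2 and 9 *Xist* counts. Replicate 3 of both genotypes stood apart on the first principal component, with scores of 54.6 and 28.6 against scores between -36.5 and -3.31. Markers of CD8+ T cells summed to between 3370 and 3640 CPM (counts scaled to a common library total) in all 6 libraries. Markers of B cells summed to between 28.5 and 37.3 CPM in WT and between 22.9 and 30 CPM in BIT mice, and all 5 had a negative log2 fold change of BIT against WT, with a median of -0.37. Markers of myeloid and dendritic cells summed to between 14.1 and 36.6 CPM in WT and between 10.9 and 18.1 CPM in BIT mice, and all 6 that were tested had a negative log2 fold change, with a median of -0.48. The upper WT sum was that of WT replicate 3, where *Itgax* alone was at 20.6 CPM, against 2.91 and 3.58 CPM in WT replicates 1 and 2. None of the markers of B, myeloid and dendritic cells passed an adjusted p of 0.05. Their part in the receptors with lower values in BIT mice was not tested. Summed markers of the other cell types were between 6.47 and 10.5 CPM for CD4+ and regulatory T cells, between 1.12 and 2.32 for NK cells, between 5.63 and 7.79 for γδ T cells and between 0.179 and 0.548 for stroma. The 4 erythroid markers, each with a positive log2 fold change, summed to between 1.28 and 10.7 CPM in WT and between 4.45 and 35.1 CPM in BIT mice. All 4 were highest in BIT replicate 2. *Hbb-bs*, for instance, was at 6.52, 4.5 and 0.923 CPM in WT and at 2.36, 18.2 and 4.71 CPM in BIT mice. Of the stromal markers *Pdpn* and *Krt8* were at 0 in every library.

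*Gpr15* was higher in BIT mice than in WT mice, with a call that held in 6 of 15 alternative fits. Fitted with limma-voom, 1 of the 8 genes was higher and 0 were lower at a Benjamini-Hochberg adjusted p below 0.05, where 0.0807% of all genes tested were higher, 0.0559% were lower and 0.137% passed in either direction. At an unadjusted p below 0.05, 2 of the 8 were higher (*Gpr15* and *Cxcr3*) and 2 were lower (*Ccr9* and *Itgae*), where 4.25% and 4.32% of all genes were. The same 2 and 2 genes had groups that did not overlap, which 7.38% of all genes showed upwards and 5.96% downwards. For these 4 genes an exact permutation test, two-sided, gave p = 0.1, the smallest value that 3 mice against 3 allow. *Ccr7*, *S1pr1*, *Cxcr4* and *Ccr2* had overlapping groups. Since this is bulk RNA, a smaller share of cells with a transcript and less transcript per cell cannot be told apart in any of these values.

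**Figure D1:**
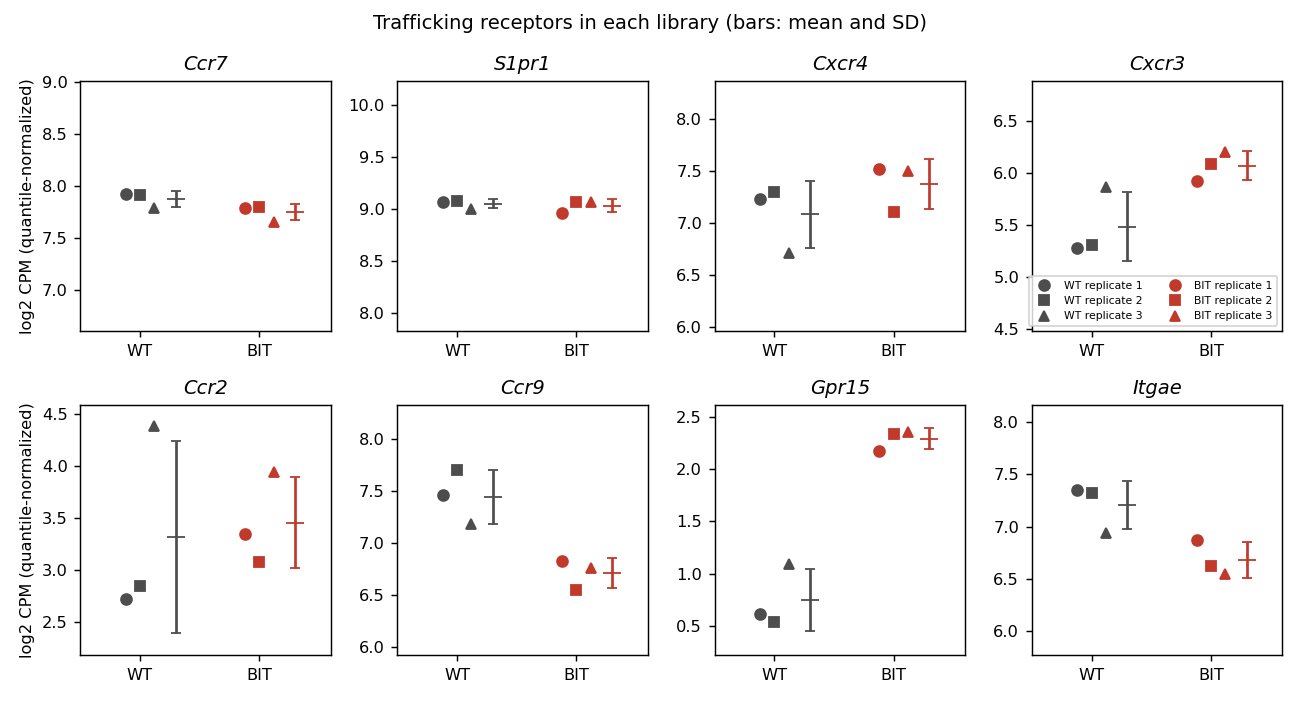
Quantile-normalized log2 CPM (y axis) of the 8 receptor genes in the 3 WT (grey) and 3 BIT (red) libraries, with the symbol giving the replicate and the bars the mean and SD. Each panel spans the same log2 range. The BIT points lie above the WT points for *Gpr15* and *Cxcr3* and below them for *Ccr9* and *Itgae*, while WT replicate 3 lies nearest to the BIT points in these 4 panels.

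Short stretches of sequence upstream of the starts of *Gpr15*, *Cxcr3* and *Ccr9* are shown because these genes differed most between the genotypes in RNA, in both directions. A RefSeq promoter table on GRCm38.p6 had entries for 5 of the 8 genes (*Cxcr4*, *Cxcr3*, *Ccr2*, *Ccr9* and *Gpr15*). *Ccr7*, *S1pr1* and *Itgae* had none. The 250 bases before the start were searched on both strands for TGTGGT (RUNX factors), GTGTGA (T-box factors), CACCC (KLF factors) and GTAAACA (FOXO factors), which 14%, 12.3%, 52% and 3.17% of 32851 such windows hold. No 2 of the matches overlapped. The windows below have 30 bases, read 5′ to 3′ on the strand of the gene, with the motif in capitals.
Gpr15, RUNX, chr16:58539300-58539329, minus strand: agaaagaaaACCACAACCACAgccaatacc
Cxcr3, RUNX, chrX:100777846-100777875, minus strand: tgtattcacctgACCACAggcgtggcagaa
Cxcr3, T-box, chrX:100777970-100777999, minus strand: actgccatcagaTCACACttcctgcctgct
Ccr9, KLF, chr9:123596191-123596220, plus strand: caggtggctcccCACCCttctgggttactc

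The positions are on GRCm39, the build of the counts, found by an exact match of the sequences to the genome. The RUNX letters stand 2 times side by side in *Gpr15*, from base -85 counted from the RefSeq start, and 1.27% of all windows hold them 2 or more times. This share was counted for the RUNX letters only and not for the other motifs. In the Gencode annotation the RUNX stretch of *Gpr15* lies within the exon of that gene, whose annotated start is further upstream. The RUNX match of *Cxcr3* lies in its exon 1, the T-box match upstream of the gene, and the match of *Ccr9* in an intron of its longest transcripts. *Ccr2* had no match of these motifs, *Cxcr4* had a CACCC match, and *Gpr15* a further one at base -57. These matches describe letters only, and binding was not measured.

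*Ccr7* (chromosome 11, 99035022 to 99045911, minus strand) was at 246, 220 and 224 CPM in the 3 WT libraries and at 221, 226 and 218 CPM in the 3 BIT libraries. The groups overlapped and the BIT libraries lay within the range from 218 to 226 CPM. The log2 fold change of BIT against WT was -0.13 (standard error 0.0804, 95% interval -0.31 to 0.05, limma-voom adjusted p = 0.686), so that a difference beyond 0.805-fold or 1.04-fold lay outside the interval. A long non-coding gene on the opposite strand, *Gm57398*, shares 133 exon bases with *Ccr7* and had between 584 and 999 counts.

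*S1pr1* (chromosome 3, 115504071 to 115508721, minus strand), the egress receptor, had the highest level of the 8 genes. It was at 548, 501 and 515 CPM in WT and at 491, 548 and 566 CPM in BIT mice. The difference of -0.02 on the log2 scale (standard error 0.0747, 95% interval -0.19 to 0.15, limma-voom adjusted p = 0.963) was within the spread of either group. With TMM normalization the estimate was 0.03.

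*Cxcr4* (chromosome 1, 128515936 to 128520044, minus strand) encodes the receptor for CXCL12, which holds cells in bone marrow and also acts in lymph node entry. It was at 151, 143 and 107 CPM in WT and at 181, 139 and 192 CPM in BIT mice. WT replicate 3 was the lowest library and 2 BIT libraries were above every WT library. The log2 fold change was 0.30 (standard error 0.169, 95% interval -0.09 to 0.68, limma-voom adjusted p = 0.667). The estimate dropped to 0.11 when WT replicate 3 was left out, and replicates 1 and 2 gave 0.05.

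*Cxcr3* (chromosome X, 100775141 to 100777875, minus strand) encodes the receptor for the interferon-induced chemokines CXCL9, CXCL10 and CXCL11. It was at 38.8, 36.7 and 60.0 CPM in WT and at 59.4, 69.1 and 77.7 CPM in BIT mice. On the plain CPM scale WT replicate 3 was level with BIT replicate 1, and on the quantile-normalized scale the groups were separated by 0.04. The log2 fold change was 0.59, or 1.5-fold (standard error 0.157, 95% interval 0.23 to 0.94), and the limma-voom adjusted p was 0.414. WT replicate 3, the library with 66626 *Xist* counts, had the highest WT value of this X-linked gene. Without WT replicate 3 the log2 fold change was 0.78 and the adjusted p from limma-voom was 0.0307. Without any other mouse the adjusted p was between 0.359 (without BIT replicate 3) and 0.999 (without BIT replicate 2). Replicates 1 and 2 alone gave 0.71 with an adjusted p of 0.0316, and DESeq2 gave 0.62 with 0.0154.

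*Ccr2* (chromosome 9, 123901982 to 123913594, plus strand) encodes the receptor for CCL2 on monocytes and memory T cells. It was at 6.25, 6.88 and 21.8 CPM in WT and at 9.62, 8.31 and 16.1 CPM in BIT mice. Replicate 3 was the highest library in both groups. The log2 fold change of 0.20 (standard error 0.401, 95% interval -0.71 to 1.11, limma-voom adjusted p = 0.909) changed sign to -0.10 without WT replicate 1 and was 0.68 without WT replicate 3. Its counts were not whole, since the counting divides reads that match more than 1 gene. *Lyz2* and *Csf1r* are defining markers of myeloid cells, which also carry CCR2. *Lyz2* was at 4.72, 6.11 and 4.06 CPM in WT and at 3.06, 3.23 and 3.76 CPM in BIT mice. *Csf1r* was at 3.23, 5.56 and 5.18 CPM in WT and at 2.57, 2.73 and 4.08 CPM in BIT mice. *Itgax*, from the same marker list, was at 2.91, 3.58 and 20.6 CPM in WT and at 6.03, 3.07 and 5.53 CPM in BIT mice. The part of myeloid cells in the *Ccr2* counts was not tested.

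*Ccr9* (chromosome 9, 123507181 to 123613395, plus strand) encodes the receptor for CCL25, the chemokine of thymus and small intestine. It was at 177, 187 and 149 CPM in WT and at 113, 95.5 and 115 CPM in BIT mice, so that all 3 BIT libraries lay below all 3 WT libraries. The log2 fold change was -0.73, or 60.3% of the WT level (standard error 0.136, 95% interval -1.04 to -0.42), and the limma-voom adjusted p was 0.199. The adjusted p was 0.0305 without WT replicate 3 (log2 fold change -0.86) and between 0.191 and 0.842 without any other mouse. It was 0.0327 in replicates 1 and 2 alone (-0.88) and 0.00194 with DESeq2 (-0.68). The antisense *Gm17021* shares 1932 exon bases with *Ccr9* and had between 27.9 and 92.2 counts, against between 4017 and 9439 for *Ccr9*.

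*Itgae* (chromosome 11, 72981409 to 73039917, plus strand) encodes CD103, which pairs with the integrin chain β7 and binds E-cadherin on epithelium. It was at 164, 145 and 124 CPM in WT and at 116, 99.3 and 98.7 CPM in BIT mice. The groups did not overlap, with WT replicate 3 and BIT replicate 1 nearest to each other. The log2 fold change was -0.53, or 69.4% of the WT level (standard error 0.13, 95% interval -0.82 to -0.23), and the limma-voom adjusted p was 0.372. It passed 0.05 in none of the 15 alternative fits, in which the adjusted p was between 0.0536 and 0.999 and the log2 fold change between -0.66 and -0.45. *Itgb7*, the partner chain, had an estimated difference of 0.05 on the log2 scale (limma-voom adjusted p = 0.909).

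Beside *Ccr9* and *Itgae*, among the 4 markers of immature thymocytes *Dntt*, which encodes the enzyme that adds bases at V(D)J joints, was at 6.69, 7.63 and 4.73 CPM in WT and at 2.21, 2.07 and 2.78 CPM in BIT mice (log2 fold change -1.38, limma-voom adjusted p = 0.312). *Rag1*, *Rag2* and *Ptcra* had at most 1 count in any library. The 4 summed to between 4.73 and 7.63 CPM in WT and between 2.09 and 2.8 CPM in BIT mice. *Siglech*, a marker of plasmacytoid dendritic cells, which carry CCR9, had 5, 8 and 5 counts in WT and 0 in each BIT library. These counts were too few for a test. Of the 6 myeloid and dendritic cell markers tested, all with a negative log2 fold change, *Flt3* was at -0.07 (limma-voom adjusted p = 0.976). *Itgax* was at -0.24 (limma-voom adjusted p = 0.932). The part of immature thymocytes and dendritic cells in *Ccr9* and *Itgae* was not tested.

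*Gpr15* (chromosome 16, 58537796 to 58539433, minus strand) encodes a receptor for homing to the large intestine and has a single exon. It had 71, 71 and 110 counts in WT and 179, 202 and 215 counts in BIT mice, or 1.34, 1.40 and 2.75 CPM against 4.00, 4.80 and 5.74 CPM. Every BIT library lay above every WT library, with a gap of 1.09 on the quantile-normalized log2 scale. *Gpr15* was 2.95-fold higher in BIT mice (log2 fold change 1.56, standard error 0.217, 95% interval 1.07 to 2.05, limma-voom adjusted p = 0.0464) and had rank 20 by p among the 16105 genes. The difference stayed between 1.41 and 1.75 on the log2 scale in all 15 alternative fits, but the call held in 6 of them. The adjusted p was 0.0307 without WT replicate 3, and it was 0.232 without WT replicate 1, 0.304 without WT replicate 2, 0.164 without BIT replicate 1, 0.303 without BIT replicate 2 and 0.106 without BIT replicate 3. TMM normalization gave 0.17 and edgeR's quasi-likelihood test 0.241, while DESeq2 gave 0.000753. Limma-voom on genes with a mean of at least 1 CPM gave 0.0504. The study's own comparison of these cells, over fewer genes than the 16105 here, used a cut on fold change and P. Besides *Psmb11* it listed *Scart2* and *Bbc3* as higher in BIT mice, and it did not list *Gpr15*. The cause of this difference from the study was not tested.

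*Gpr15* is also known from regulatory T cells. The 5 markers of CD4+ and regulatory T cells summed to between 6.47 and 10.5 CPM in WT and between 6.64 and 8.32 CPM in BIT mice, 2 of them with a positive and 3 with a negative log2 fold change and a median of -0.04. *Foxp3*, the defining marker of regulatory T cells, had 64, 53 and 30 counts in WT and 26, 27 and 18 in BIT mice. The part of these cells in the *Gpr15* counts was not tested. *Cpox*, on the opposite strand, shares 204 exon bases with *Gpr15*, and the study's sources do not state the strand setting of the counting, although the library kit keeps the strand. *Cpox* was at 22.1, 20.6 and 26.5 CPM in WT and at 26.2, 32.1 and 27.5 CPM in BIT mice (log2 fold change 0.30, limma-voom adjusted p = 0.537), and its part in the *Gpr15* counts was not tested.

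**Figure D2:**
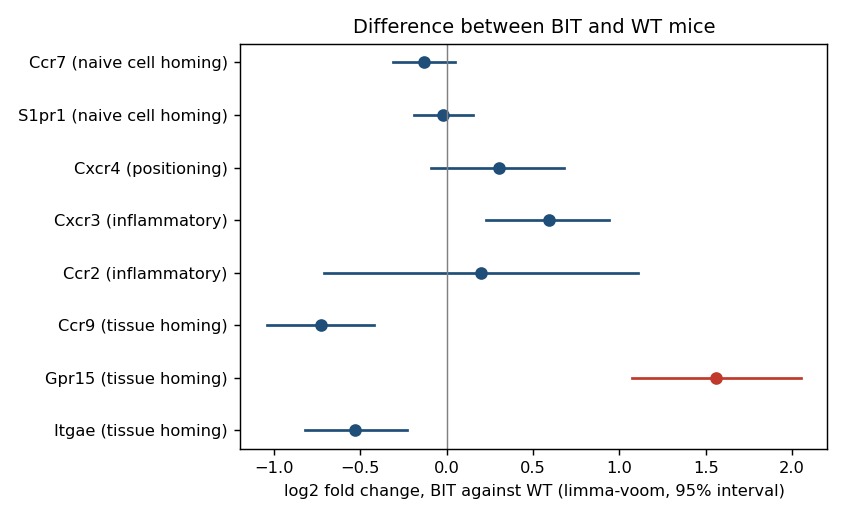
Log2 fold change of BIT against WT mice (x axis) for the 8 genes, as points with 95% intervals from limma-voom. Red marks *Gpr15*, the gene with an adjusted p below 0.05. The intervals of *Cxcr3*, *Ccr9* and *Itgae* lie on a single side of 0, and that of *Ccr2* is the widest, from -0.71 to 1.11.

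The levels of the 8 genes were set side by side per kilobase of annotated exon, since longer transcripts give more counts. In WT mice *S1pr1* was at 126 ± 5.85 CPM per kb (SD, n = 3) and *Ccr7* at 116 ± 6.92, followed by *Cxcr4* at 73.3 ± 12.9, *Cxcr3* at 26.1 ± 7.43, *Itgae* at 23.2 ± 3.17, *Ccr9* at 16.2 ± 1.85, *Ccr2* at 1.72 ± 1.3 and *Gpr15* at 1.12 ± 0.487. *S1pr1* was above *Ccr7* in each of the 3 WT libraries. *Cxcr3* was above *Itgae* in 1 of 3 WT libraries, so this pair had no fixed order. In BIT mice *Cxcr3* was at 39.7 ± 5.28 CPM per kb (SD, n = 3) and above *Itgae*, at 16.8 ± 1.56, in each library. *Gpr15*, at 2.96 ± 0.531, was above *Ccr2*, at 1.68 ± 0.615, in all 3 BIT libraries and below it in all 3 WT libraries. The annotated exons of *Ccr9* span 10583 bases, long transcripts included. By the length of the canonical transcript, a choice made after seeing the data, *Ccr9* was at 32.9 ± 3.77 CPM per kb (SD, n = 3) in WT mice. This mean stood above those of *Itgae* and *Cxcr3*, but in WT replicate 3 *Cxcr3*, at 34.6, was above *Ccr9*, at 28.7. In BIT mice *Ccr9*, at 20.8 ± 2.07 by this length (SD, n = 3), was above *Itgae*, at 19.1 ± 1.77, in each library.

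**Figure D3:**
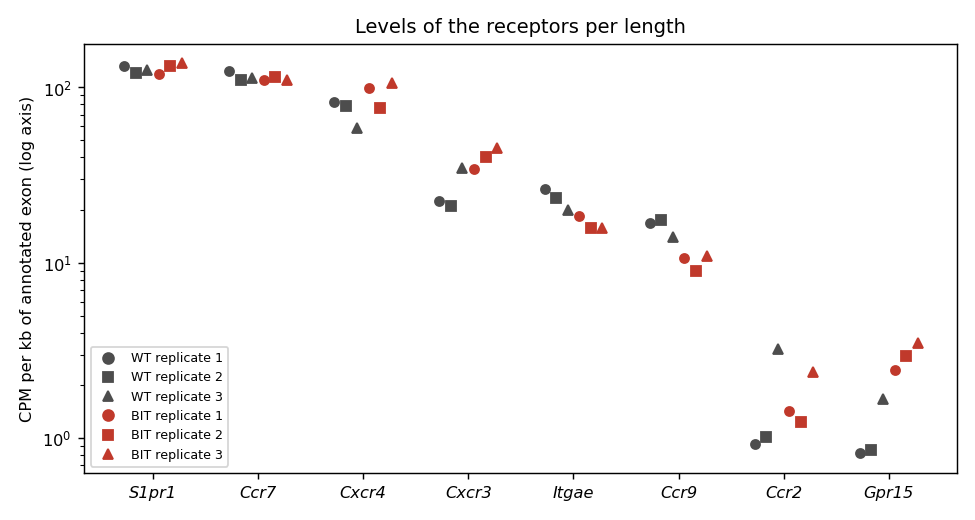
CPM per kilobase of annotated exon (y axis, log scale) for the 8 genes, ordered by the WT mean, in the 3 WT (grey) and 3 BIT (red) libraries. *S1pr1* and *Ccr7* lie above 100 in every library, and *Ccr2* and *Gpr15* lie below 4.

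The balance of naive against inflammatory homing receptors was described by ratios within each library, which do not depend on scaling between libraries. *Ccr7* exceeded *Cxcr3* per kilobase by 5.52, 5.23 and 3.26 times in WT and by 3.24, 2.85 and 2.45 times in BIT mice. The BIT ratios were thus all below the WT ratios, with WT replicate 3 and BIT replicate 1 almost equal. On the log2 scale the ratio was 2.19 ± 0.418 (SD, n = 3) in WT and 1.5 ± 0.204 (SD, n = 3) in BIT mice, a difference of -0.69 which reached -0.93 when WT replicate 3 was left out and was smallest, at -0.55, when WT replicate 1 was left out. *S1pr1* to *Cxcr3* gave log2 ratios of 2.56, 2.51 and 1.85 in WT and 1.79, 1.73 and 1.61 in BIT mice, with the same order. *Ccr7* to *Ccr2* gave 7.07, 6.77 and 5.13 against 6.29, 6.53 and 5.53, and these groups overlapped. Of the log2 fold changes in these ratios, that of *Cxcr3* was 0.59, that of *Ccr7* -0.13 and that of *S1pr1* -0.02.

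**Figure D4:**
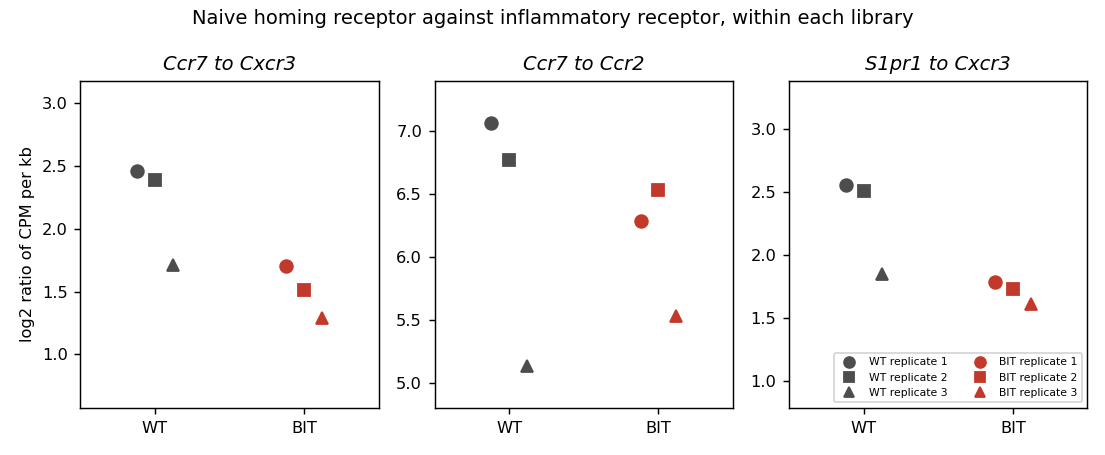
Log2 ratio of CPM per kilobase (y axis) of a naive homing receptor to an inflammatory receptor within each WT (grey) and BIT (red) library, with the symbol giving the replicate. Each panel spans the same log2 range. The BIT ratios to *Cxcr3* lie below the WT ratios, and those to *Ccr2* are mixed, with replicate 3 lowest in both genotypes.

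The 8 genes were then set beside 8 lists of trafficking genes by role, with 79 genes in all, of which 66 were tested. Apart from the 8 receptors, 0 of the other 58 genes tested passed an adjusted p of 0.05 from limma-voom. Of all genes tested, 0.137% did. At an unadjusted p below 0.05 from limma-voom, 1 of the 58, *Ccr4*, was lower, where 4.32% of all genes tested were. The number higher at that p is not reported here. The median log2 fold change over all genes tested was 0.012. Among the 4 genes of lymph node entry the median was 0.11. The 7 genes of egress and its regulators had a median of 0.04. Among them *Klf2*, the factor that drives *S1pr1*, had an estimated difference of 0.18 on the log2 scale (limma-voom adjusted p = 0.633).

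The 10 inflammatory chemokine receptors tested had a median of -0.35, with 5 higher and 5 lower in estimate. *Ccr4*, a receptor of skin-homing and helper cells, had 41, 48 and 46 counts in WT and 20, 13 and 9 counts in BIT mice (log2 fold change -1.34, standard error 0.431, limma-voom adjusted p = 0.511). The receptor thus had fewer counts in each BIT library than in any WT library. *Cx3cr1*, the marker of terminal effector cells, named after its values were seen, was at 21.2 CPM in WT replicate 3 and between 0.666 and 2.94 CPM in the other 5 libraries. The 4 positioning receptors tested had a median of 0.24, with *Cxcr5* at 0.25 (limma-voom adjusted p = 0.713).

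The 8 genes of gut, skin and epithelial homing, to which *Ccr9*, *Gpr15* and *Itgae* belong, had a median of 0.10 with 5 higher and 3 lower. *Itga4*, which pairs with *Itgb7* to form the integrin for intestinal vessels, was at 521, 464 and 708 CPM in WT and at 396, 378 and 563 CPM in BIT mice (log2 fold change -0.40, standard error 0.179, limma-voom adjusted p = 0.586). Its highest library was replicate 3 in either group. The 7 selectin ligand genes tested had a median of 0.09 and the 18 genes of receptor signalling and adhesion -0.03, and the genes with the smallest p in them were *Fut7* (0.46, limma-voom adjusted p = 0.702) and *Rgs19* (-0.25, limma-voom adjusted p = 0.611). Of 16 ligand genes, 8 were tested, with a median of -0.28, and *Cdh1*, the E-cadherin bound by CD103, had the smallest p among them (0.49, limma-voom adjusted p = 0.667). *Ccl19*, *Cxcl11* and *Ccl7* had 0 counts in every library.

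**Figure D5:**
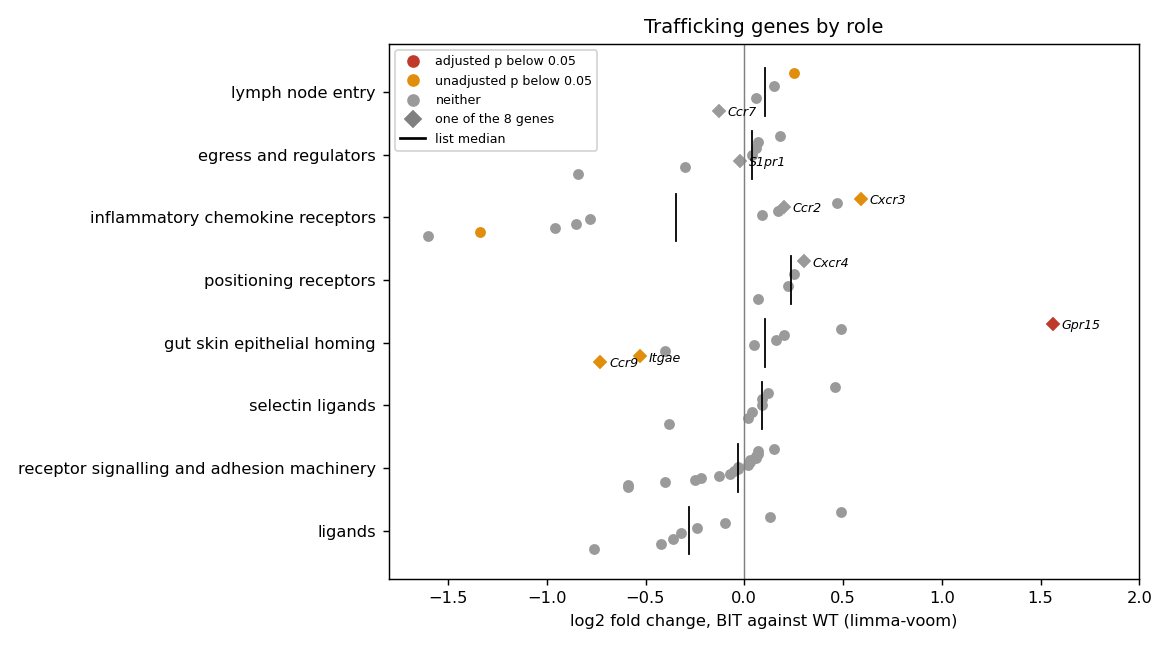
Log2 fold change of BIT against WT mice (x axis) for the 66 tested genes of the 8 trafficking lists (rows). Diamonds are the 8 receptors, circles the other genes, colours the call of limma-voom, and black bars the list medians. *Gpr15* at 1.56 is the single red point, and most of the signalling genes lie close to 0.

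*Gpr15* and *Ccr2* had the widest ranges of the 8 genes over the 6 libraries, 1.82 and 1.66 on the quantile-normalized log2 scale. The genes whose mean-centred profile was nearest to that of *Gpr15* were *Runx2os1*, *Klra1* and *Scart2*, at root mean square distances of 0.128, 0.129 and 0.167 over the 6 libraries. *Scart2*, a scavenger receptor gene best known from γδ T cells, had 127, 133 and 140 counts in WT and 286, 346 and 338 counts in BIT mice, and *Klra1*, a killer lectin-like receptor gene, had 22, 27 and 39 against 51, 57 and 87. Both had more counts in each BIT library than in any WT library, which follows from their choice by likeness to *Gpr15*. *Runx2os1* had between 6 and 18 counts, so its profile rests on few reads. The nearest profiles to *Ccr2* were those of *Gm49705*, *Rnf157* and *Gm44553*, at 0.124, 0.126 and 0.127. Each had its highest counts in replicate 3 of both genotypes, which likewise follows from the choice.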

How the data were processed

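Estimated counts per gene were deposited for 6 libraries, 1 per mouse, for which the authors used cutadapt 1.18 on the reads, STAR 2.7.0f for alignment to GRCm39 and RSEM 1.3.1 with Gencode M38 for counting (versions from the submitters' processing notes). The library kit removed ribosomal RNA. RSEM divides reads that match several genes, and 84.8% of values above 0 were whole. Counts were rounded, genes were kept with filterByExpr of edgeR 4.0.16, and BIT mice were set against WT mice in limma 3.58.1 (voom with quantile normalization, eBayes) in R 4.3.3, as in the study's methods, with Benjamini-Hochberg adjustment over all genes tested. The study's methods name no filter on genes, and the study reports fewer genes as detected than the 16105 tested here. A gene was called at an adjusted p below 0.05. Levels are CPM of the library total, also per kilobase of Gencode M39 exons, which held 78263 of 78275 identifiers. The smallest level set by 3 counts is between 0.0567 and 0.0801 CPM, for counting error only.

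The 8 genes and the lists were chosen with earlier results of these data known. Named were the 8 genes, list members with an adjusted p below 0.05, the gene of smallest p in each list that is not among the 8 (in 1 list this gene is not reported here), and the 3 nearest profiles to the 2 genes of widest range. The alternatives tried were DESeq2 1.42.0, the quasi-likelihood test of edgeR, TMM normalization, other filters, a block for the replicate number, weights for sample quality, replicate 3 as a batch, replicates 1 and 2 alone and each mouse left out. Of 7 γδ T cell markers listed, 4 were found in the table.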

Additional observations from a re-analysis of the deposited data

How the results depend on the processing

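The number of genes with an adjusted p below 0.05 was 22 and went to 14 with edgeR, 125 with DESeq2, 67 in replicates 1 and 2 alone and 42 when replicate 3 was a batch, and lay between 2 and 37 with each mouse left out. Among the 8 receptors the number was 1 and went to 3 with DESeq2 and in replicates 1 and 2 alone, and to 0 with TMM normalization, edgeR, no filter on low counts and a mean of at least 1 CPM, each with 4 at an unadjusted p below 0.05. It lay between 0 and 3 with each mouse left out. The estimate of *S1pr1* changed sign to 0.03 with TMM normalization, edgeR and DESeq2 and lay between -0.04 and 0.02 with each mouse left out. That of *Ccr2* changed to -0.02 with edgeR and -0.01 with DESeq2 and lay between -0.1 and 0.68 with each mouse left out. The difference in the log2 ratio of *Ccr7* to *Ccr2* lay between -0.8 and 0.17. The cause was not tested. *Ccr7*, *Cxcr4*, *Cxcr3*, *Ccr9*, *Gpr15* and *Itgae* kept their sign in all 15 alternatives. Of the list medians, that of gut, skin and epithelial homing (0.10) was -0.04 with TMM normalization, and its values with 1 mouse left out ranged from -0.03 (BIT replicate 2) to 0.18. That of the ligands (-0.28) ranged from -0.47 to 0.09 (BIT replicate 2), that of egress (0.04) from -0.02 (BIT replicate 3) to 0.07, and that of the inflammatory receptors (-0.35) was -0.58 with TMM normalization. The median of signalling and adhesion (-0.03) was 0.02 with TMM normalization.

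Same-numbered libraries had correlations of deviations from the group means of 0.139, 0.0255 and 0.332, and WT replicate 2 was closest to BIT replicate 1 (0.244), so the numbers were not taken to pair the mice. With the replicate block, 21 genes and 1 of the 8 receptors, *Gpr15* (log2 fold change 1.55, limma-voom adjusted p = 0.0484), were called.

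Fits that leave out a mouse keep 2 mice in an arm, and nothing says which libraries were prepared together. *Gpr15*, at 71 to 215 counts, has the fewest counts of the 8 genes.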
